A study of Mus musculus with 12 samples.

Results

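The 10 genes described here carry out or control antigen presentation by MHC class I molecules: H2-K1, H2-D1, B2m, Tap1, Tap2, Tapbp, Psmb8, Psmb9, Psmb10 and Nlrc5. They were chosen by name, and all 10 were found among the 23955 genes of the deposited tables. The cells were neurons cultured from the cortices of E16.5 embryos of C57BL/6J mice. A lentivirus delivered a short hairpin RNA (shRNA) 1 day after plating, and RNA was taken on day 7 from dissection. All 5 groups carried a hairpin, with 2 biological replicates each: the control hairpins shControl1 and shControl2, and hairpins against Adar (which encodes the RNA-editing enzyme ADAR1), Adarb1 (which encodes ADAR2) and Zfr (a zinc finger RNA-binding protein), labelled shAdar1, shAdar2 and shZfr. Following the stated design, shAdar1 and shAdar2 were compared with shControl1, and shZfr with shControl2. Replicate 1 of shAdar2 was sequenced as 3 technical libraries, separate preparations from RNA of the same neurons, which gave 12 libraries from 10 samples. The hairpins differ between groups, so a difference between groups holds the difference between hairpins as well as that between targets.

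MHC class I molecules show fragments of a cell's own proteins on its surface, where cytotoxic T cells can read them. The proteasome cuts the proteins, and interferon-inducible catalytic subunits can take the place of its constitutive ones to form the immunoproteasome. The TAP transporter carries the peptides into the endoplasmic reticulum, where tapasin helps load them onto a heavy chain paired with beta-2-microglobulin. Neurons are known for low class I expression that interferon can raise, and class I molecules have also been studied at synapses.

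Start-site windows are shown for 5 of the genes, because several of the members rose together in shAdar2. RefSeq windows on GRCm38.p6, from 250 bases before to 50 after the start site, were at hand for 8 of the 10 genes (H2-K1, H2-D1, B2m, Tap1, Tapbp, Psmb8, Psmb9 and Psmb10). They are written 5′ to 3′ in the direction of transcription. Capitals mark matches to 3 short motifs searched on both strands: AANNGAAA, the core of sites for interferon regulatory factors (IRF), GGNNNTTCC, a form of the NF-kappaB site, and TTCNNNGAA, the core of the gamma-activated site (GAS).
H2-K1, chr17:34000298-34000597, minus strand: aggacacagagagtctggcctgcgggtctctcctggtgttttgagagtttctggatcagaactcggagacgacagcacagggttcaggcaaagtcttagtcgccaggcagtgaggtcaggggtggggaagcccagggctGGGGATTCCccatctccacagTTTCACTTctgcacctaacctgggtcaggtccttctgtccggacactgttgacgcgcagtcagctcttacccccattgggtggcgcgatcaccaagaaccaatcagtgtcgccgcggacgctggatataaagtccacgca
H2-D1, chr17:35262844-35263143, plus strand: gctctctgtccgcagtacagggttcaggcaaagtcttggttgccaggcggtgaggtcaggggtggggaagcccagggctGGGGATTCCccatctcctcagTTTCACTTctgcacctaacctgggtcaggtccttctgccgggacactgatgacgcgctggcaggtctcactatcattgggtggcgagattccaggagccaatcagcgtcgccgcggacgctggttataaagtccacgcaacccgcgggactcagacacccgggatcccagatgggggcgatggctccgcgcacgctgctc
B2m, chr2:122147437-122147736, plus strand: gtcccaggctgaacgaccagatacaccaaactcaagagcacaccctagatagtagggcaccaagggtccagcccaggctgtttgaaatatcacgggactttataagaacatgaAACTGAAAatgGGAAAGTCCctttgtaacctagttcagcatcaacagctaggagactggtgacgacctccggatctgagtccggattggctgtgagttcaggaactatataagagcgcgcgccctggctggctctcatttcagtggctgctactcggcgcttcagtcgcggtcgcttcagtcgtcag
Psmb8, chr17:34197945-34198244, plus strand: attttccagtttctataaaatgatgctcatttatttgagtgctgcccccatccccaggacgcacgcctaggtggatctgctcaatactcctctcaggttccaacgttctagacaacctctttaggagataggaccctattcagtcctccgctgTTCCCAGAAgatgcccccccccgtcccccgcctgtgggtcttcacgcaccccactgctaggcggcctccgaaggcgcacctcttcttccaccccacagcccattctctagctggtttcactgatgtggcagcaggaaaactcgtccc
Tap1, chr17:34187306-34187605, plus strand: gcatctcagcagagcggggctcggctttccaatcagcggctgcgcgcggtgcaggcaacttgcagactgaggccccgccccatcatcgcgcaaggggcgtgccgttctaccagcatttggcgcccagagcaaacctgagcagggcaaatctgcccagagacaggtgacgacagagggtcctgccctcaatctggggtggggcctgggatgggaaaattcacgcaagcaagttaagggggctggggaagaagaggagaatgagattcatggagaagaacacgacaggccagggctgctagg

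The IRF motif was found in the windows of H2-K1, H2-D1 and B2m, and these 3 also held the NF-kappaB motif. In H2-K1 and H2-D1 the NF-kappaB match read GGGGATTCC and lay upstream of an IRF match that read TTTCACTT, beginning 111 and 90 bases before the start site in the H2-K1 window shown and 171 and 150 bases before it in H2-D1. B2m had the IRF match AACTGAAA 137 bases and the NF-kappaB match GGAAAGTCC 126 bases before its start. The window of Psmb8, whose gene rose most in shAdar2, had only the GAS match TTCCCAGAA, 97 bases before the start, and no motif matched in Tap1, Psmb9, Tapbp or Psmb10. Tap1 and Psmb9 are transcribed in opposite directions from start sites 226 bases apart, and their windows share 275 bases. Short motifs are common: among all 32851 windows of this length, 23.9% held the IRF motif, 18.5% the NF-kappaB motif and 8.30% the GAS motif. A match describes letters in the window and is not a measured binding site. The motifs were chosen after the windows had been seen.

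Levels are given as CPM, the expected counts of a gene scaled to a common library size with TMM factors, and group values as mean ± SD with n = 2, with the 3 technical libraries averaged first. Libraries held 1.58e+07 to 2.97e+07 expected counts. Each hairpin's target was low in its group: Adar measured 53.4 ± 2.43 CPM in shAdar1 against 176 ± 28.2 in shControl1, Adarb1 51.3 ± 1.94 in shAdar2 against 123 ± 2.82, and Zfr 177 ± 0.495 in shZfr against 473 ± 54.5 in shControl2. Adarb1 was also low in shZfr, at 48.6 ± 2.52 CPM against 98.6 ± 5.35 in shControl2, and Zfr was lower in shAdar2 than in shControl1 by 0.57 ± 0.11 on the log2 scale (SE; adjusted p = 0.00292, edgeR). The 12 neuron markers summed to between 3326 and 8344 CPM in every library, lowest in shAdar2, while 14 microglia and macrophage markers summed to at most 24.8 CPM. Glial markers were also present: 10 astrocyte markers summed to between 603 and 3583 CPM and 8 oligodendrocyte lineage markers to between 76.8 and 453 CPM. Both sums were highest in shControl2. In whole cultures, fewer cells of a type and less RNA per cell cannot be told apart.

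All 10 genes were highest in shAdar2. For each of them, each of the 4 shAdar2 libraries lay above each of the other 8 libraries, which held for 14.6% of the 14785 genes tested. Against shControl1, 9 of the 10 genes rose and none fell, while 23.2% of all genes tested rose and 23.2% fell at a Benjamini-Hochberg adjusted p under 0.05 (edgeR's quasi-likelihood F test over all 10 samples). The median log2 fold change of the 10 was 2.25, against 0.04 over all genes tested, and the values ran from 0.74 for Psmb10 to 4.29 for Psmb8. With 2 samples a group, the SE of each value rests on a spread shared across genes and groups. Whether the replicates came from separate litters is not stated, so p-values measure the spread between these cultures.

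**Figure D1:**
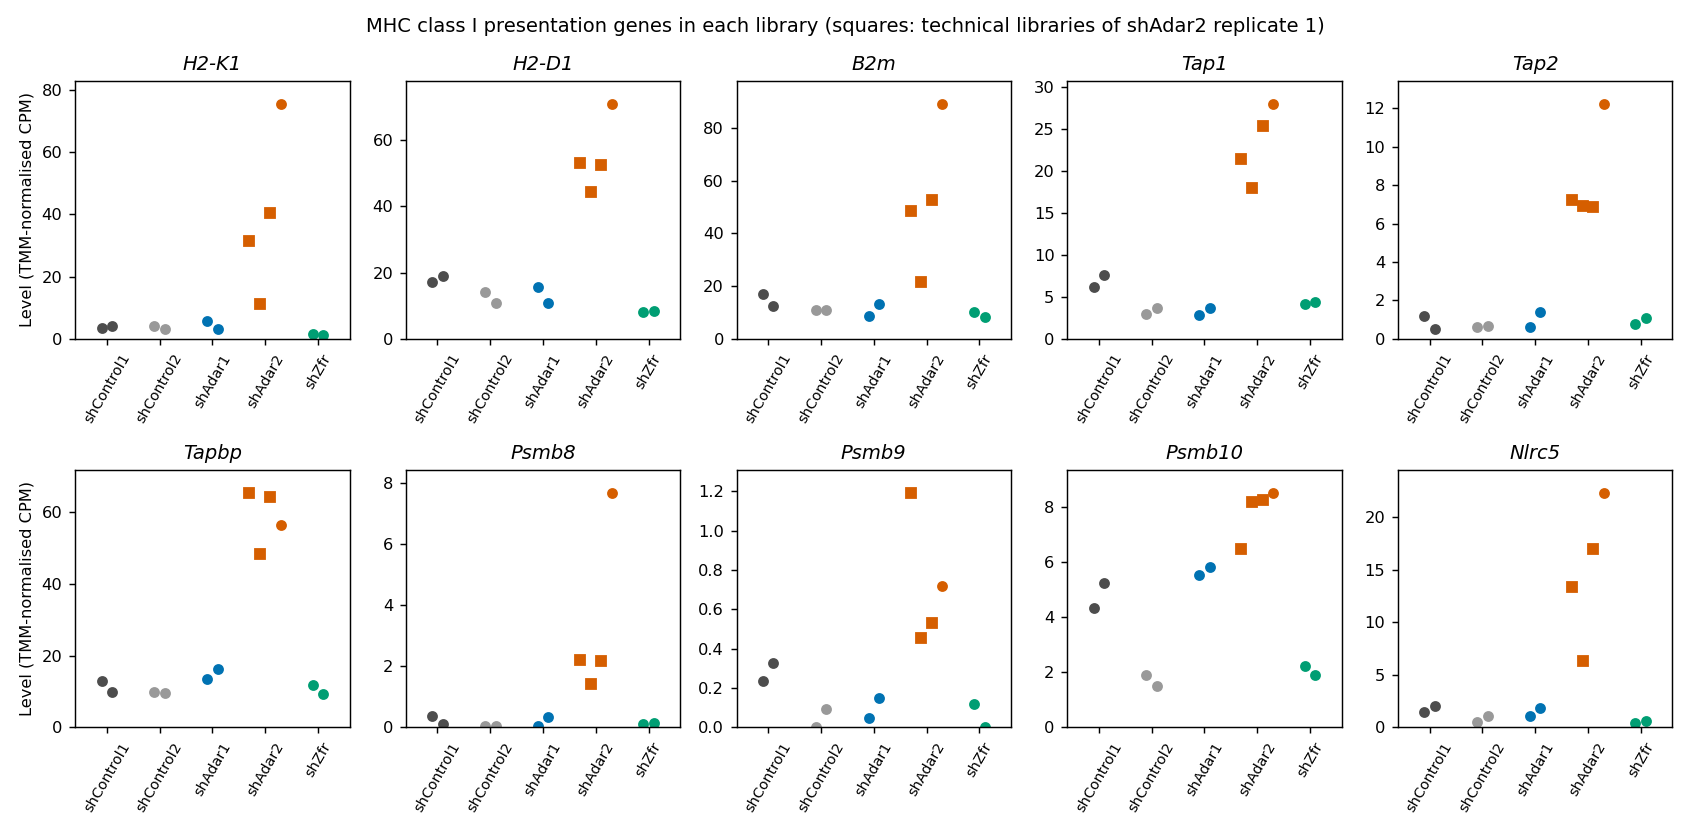
Level of each gene (TMM-normalised CPM, linear axes from 0) in each of the 12 libraries by group; squares are the technical libraries of shAdar2 replicate 1 and circles are all other libraries. In all 10 panels the shAdar2 points sit above every other point, with the smallest gaps for Psmb10, Psmb9 and B2m.

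The heavy chains H2-K1 and H2-D1 form the peptide-binding groove. H2-K1 measured 3.60 and 4.14 CPM in the shControl1 replicates, 4.08 and 3.16 in shControl2, 5.66 and 3.18 in shAdar1, 1.59 and 1.24 in shZfr, and 31.4, 11.3 and 40.3 in the technical libraries and 75.4 in replicate 2 of shAdar2. The shAdar2 libraries were spread widely but did not overlap the others. H2-K1 was 13.3-fold higher in shAdar2 than in shControl1 (log2 fold change 3.73 ± 0.46 SE, adjusted p = 0.00025, edgeR). The log2 fold change was 2.84 without shAdar2 replicate 2, still past the threshold. H2-D1 measured 17.2 and 19.0 CPM in shControl1, 14.3 and 10.8 in shControl2, 15.8 and 10.9 in shAdar1, 7.96 and 8.28 in shZfr, and 53.1, 44.3, 52.7 and 70.8 in the shAdar2 libraries, with replicate 2 last. It started from a higher level and rose less, by 1.74 ± 0.23 (adjusted p = 0.00034, edgeR).

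Because H2-K1 and H2-D1 rose by different amounts, their ratio per transcript length (deposited TPM, within a library) differed between the libraries. In the 8 libraries outside shAdar2 it lay between 0.16 and 0.38. In shAdar2 it was 0.629, 0.270 and 0.814 in the technical libraries and 1.13 in replicate 2, so 3 of 4 libraries were above the range of the others and technical library 2 was inside it. Class I genes resemble each other in sequence, and reads could be split between them. RSEM's deposited posterior SD of the count, its own measure of uncertain read placement, was at most 3.33% of the count for H2-D1, 1.45% for H2-K1 and 0.09% for Tapbp, and 0 for the other 7 genes in every library.

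B2m, the light chain shared by all class I molecules, measured 16.8 and 12.4 CPM in shControl1, 10.98 and 11.01 in shControl2, 8.72 and 13.1 in shAdar1, 10.3 and 8.23 in shZfr, and 48.6, 21.5, 52.7 and 88.9 in the shAdar2 libraries. Technical library 2 of shAdar2 came closest to the other groups. B2m rose 4.44-fold over shControl1 (log2 fold change 2.15 ± 0.35 SE, adjusted p = 0.00101, edgeR), with a log2 fold change of 1.48 without shAdar2 replicate 2, again past the threshold. Per transcript length, the summed heavy chains H2-K1 and H2-D1 stood at 0.39 to 1.05 times B2m outside shAdar2 and at 0.72 to 1.13 times B2m in it, so the 2 ranges overlapped.

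Tap1 and Tap2 encode the partner chains of the peptide transporter, and Tapbp encodes tapasin. Tap1 measured 6.23 and 7.65 CPM in shControl1, 3.00 and 3.63 in shControl2, 2.88 and 3.66 in shAdar1, 4.18 and 4.40 in shZfr, and 21.4, 18.0, 25.4 and 27.9 in the shAdar2 libraries. It rose by 1.83 ± 0.22 on the log2 scale (SE; adjusted p = 0.00020, edgeR). The shControl1 replicates were the highest outside shAdar2, which bears on the comparisons of the other hairpins described further on. Tap2 lay between 0.53 and 1.404 CPM in the 8 other libraries and at 7.24, 6.90, 6.86 and 12.2 CPM in shAdar2, a rise of 3.50 ± 0.51 (adjusted p = 0.00061, edgeR). The rise was 4.17 without shControl1 replicate 1 and 3.01 without shControl1 replicate 2, past the threshold in both cases.

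Tapbp measured 12.97 and 9.88 CPM in shControl1 and 65.2, 48.3, 64.3 and 56.3 CPM in the shAdar2 libraries, and 9.26 to 16.4 CPM in the remaining libraries. It was the member with the smallest spread between shAdar2 replicates relative to its level among the 9 that rose, and the only one of these 9 lower in replicate 2 than in the mean of the replicate 1 libraries (0.95 times). Its rise of 2.34 ± 0.19 had the lowest adjusted p of the 10 genes (3.0e-05, edgeR).

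The catalytic subunits of the immunoproteasome are Psmb8, Psmb9 and Psmb10, and the first 2 of these had few reads. Psmb8, which replaces Psmb5, had 10 and 3 expected counts in shControl1, 1 and 1 in shControl2, 1 and 9 in shAdar1 and 2 and 3 in shZfr, but 72, 41, 65 and 139 in the shAdar2 libraries. In CPM these were at most 0.39 outside shAdar2 and 2.20, 1.44, 2.17 and 7.67 in it. Psmb8 rose most of the 10, by 4.29 ± 0.88 (adjusted p = 0.00359, edgeR), but with few reads in the controls its size depended on single libraries: the value was 3.01 without shAdar2 replicate 2, 5.52 without shControl1 replicate 1 and 3.57 without shControl1 replicate 2.

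Psmb9, which replaces Psmb6 and shares its start region with Tap1, measured 0.24 and 0.33 CPM in shControl1, 0 and 0.09 in shControl2, 0.05 and 0.15 in shAdar1, 0.12 and 0 in shZfr, and 1.19, 0.46, 0.53 and 0.72 in the shAdar2 libraries. Those libraries held only 39, 13, 16 and 13 expected counts, and a library with none allows up to 0.15 CPM in shControl2 replicate 1 and 0.16 CPM in shZfr replicate 2 (3 counts, counting error only). Against shControl1 the difference did not pass the threshold (1.35 ± 0.75, adjusted p = 0.163, edgeR).

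Psmb10, which replaces Psmb7, had the smallest difference: 4.35 and 5.25 CPM in shControl1, 1.92 and 1.51 in shControl2, 5.52 and 5.84 in shAdar1, 2.24 and 1.91 in shZfr, and 6.48, 8.19, 8.26 and 8.50 in the shAdar2 libraries. It rose by 0.74 ± 0.22 (adjusted p = 0.0228, edgeR). This call was lost without shControl1 replicate 1 (0.60, adjusted p = 0.130), with technical library 1 alone as replicate 1 (0.64, adjusted p = 0.0556), with only the compared groups in the fit (adjusted p = 0.0946) and with both control hairpins pooled (adjusted p = 0.0523, edgeR).

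Shares of each exchangeable pair, taken from TPM within a library, set these subunits against their constitutive counterparts. Psmb8 made up 0.05% to 0.52% of Psmb8 plus Psmb5 outside shAdar2, 1.52% to 2.42% in the technical libraries and 8.72% in replicate 2, with no overlap. Psmb10 made up 1.48% to 4.73% of Psmb10 plus Psmb7 outside shAdar2 and 4.37% to 6.13% in it, and Psmb9 0% to 0.78% of Psmb9 plus Psmb6 outside and 0.64% to 2.00% in it, so these ranges overlapped. The constitutive subunit was the more abundant in every library and for all 3 pairs. Of the constitutive subunits, Psmb6 rose in shAdar2 against shControl1 (0.43 ± 0.15, adjusted p = 0.0405, edgeR), while Psmb7 (-0.24 ± 0.13) and Psmb5 (0.20 ± 0.12) did not pass the threshold. All 3 were lower in shControl2 than in shControl1, with a median log2 fold change of -1.17, and all 3 were higher in shAdar2 than in shControl2, with a median of 1.37.

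**Figure D2:**
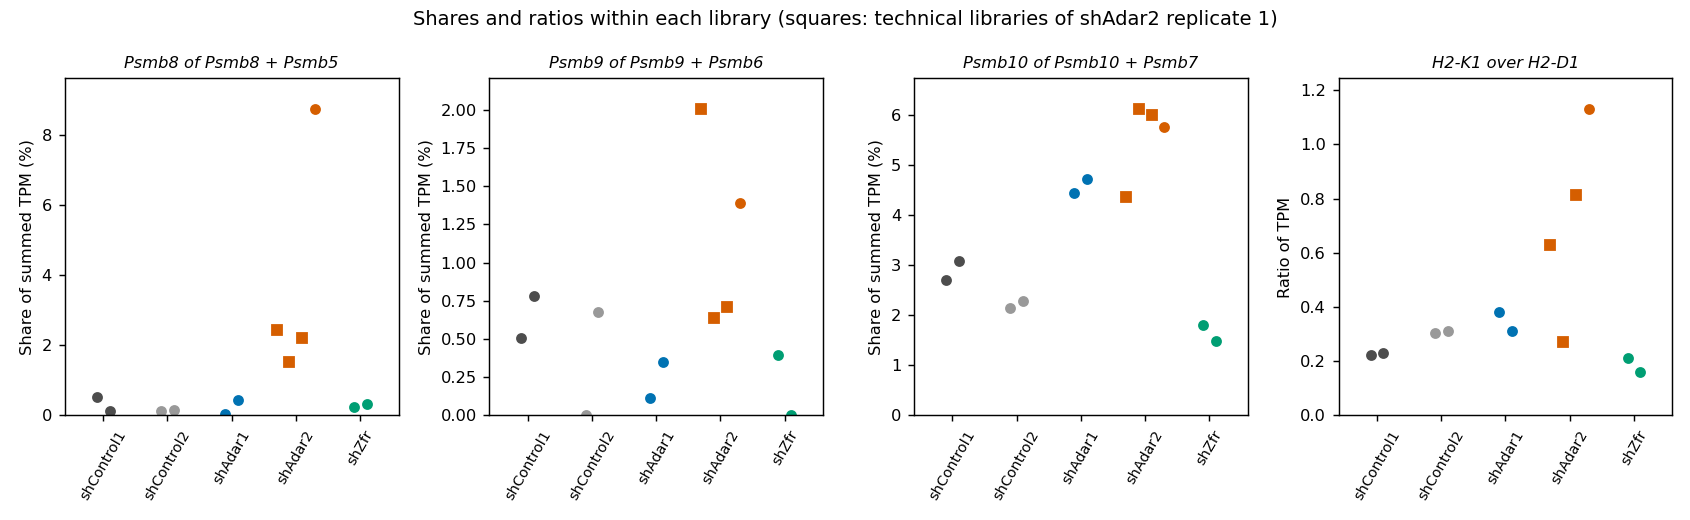
Share of each inducible subunit in the summed TPM of its pair (percent) and the ratio of H2-K1 to H2-D1 (TPM) in each library by group; squares are the technical libraries of shAdar2 replicate 1. The Psmb8 share reaches 8.72% in shAdar2 replicate 2 and at most 0.52% outside shAdar2, while for H2-K1 over H2-D1 technical library 2 lies at 0.270, among the other groups.

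Nlrc5 encodes the transactivator of class I genes, a member of the NLR family. It measured 1.45 and 2.04 CPM in shControl1, 0.49 and 1.08 in shControl2, 1.05 and 1.88 in shAdar1, 0.47 and 0.57 in shZfr, and 13.4, 6.30, 16.9 and 22.2 in the shAdar2 libraries. The lowest shAdar2 library was well above the highest of the others, and Nlrc5 rose 9.81-fold (log2 fold change 3.29 ± 0.43 SE, adjusted p = 0.00033, edgeR).

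The 4 shAdar2 libraries were not alike. Technical library 2 was lower than the mean of libraries 1 and 3 by 3.17 times for H2-K1, 2.40 times for Nlrc5 and 2.36 times for B2m, although all 3 came from RNA of the same neurons. By contrast it was 1.02 times lower for Tap2 and 1.11 times higher for Psmb10. Over 11182 genes with a mean of at least 5 CPM the ratio of library 2 to that mean had a median of 1.02, with 5th and 95th percentiles of 0.681 and 1.53. H2-K1, B2m, Psmb8, Psmb9 and Nlrc5 lay below the lower of these, Psmb8 and Psmb9 with few reads. Replicate 2 was the highest shAdar2 library for H2-K1, H2-D1, B2m, Tap1, Tap2, Psmb8, Psmb10 and Nlrc5, from 1.11 times the replicate 1 mean for Psmb10 to 3.97 times for Psmb8.

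The summed microglia and macrophage markers were higher in shAdar2 as well. The 14 markers summed to 21.0, 7.18 and 24.8 CPM in the technical libraries and 8.83 in replicate 2, against 1.87 to 4.35 in the other libraries. Of the 9 markers tested, 4 rose against shControl1 and none fell: Cd68, Fcer1g (3.69 ± 0.87, adjusted p = 0.00733), C1qc (2.58 ± 0.75, adjusted p = 0.0188) and Tyrobp (3.12 ± 0.89, adjusted p = 0.0204, all edgeR). Over all genes tested 23.2% rose in that comparison. Against shControl2 6 of the 9 were higher and none lower, with 32.2% of all genes tested higher. Tmem119, a marker of resident microglia, had 1 count in shControl1 replicate 1 and was at 0 in every other library. Other markers were mixed in shAdar2. Cx3cr1, from few reads, measured 0.43, 0.18, 0.23 and 0.28 CPM in the shAdar2 libraries and at most 0.12 CPM elsewhere. Itgam measured 0.86, 0.14, 1.53 and 0.55 CPM in these libraries, against at most 0.31 CPM elsewhere. P2ry12 measured 0, 0.07 and 0 CPM in the technical libraries and 0.88 in replicate 2, against 0.79 and 0.57 in shControl2. Ptprc reached 0.70 CPM in shAdar2 and 0.71 CPM in shZfr. Aif1 and Csf1r were highest in technical library 1 but had 1 and 0 expected counts in replicate 2. Technical library 2 was low for the marker sum and for H2-K1, B2m and Nlrc5. Replicate 2, with the highest H2-K1, B2m and Nlrc5, had a lower marker sum than libraries 1 and 3. The part of these cells in the class I levels was not tested.

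**Figure D3:**
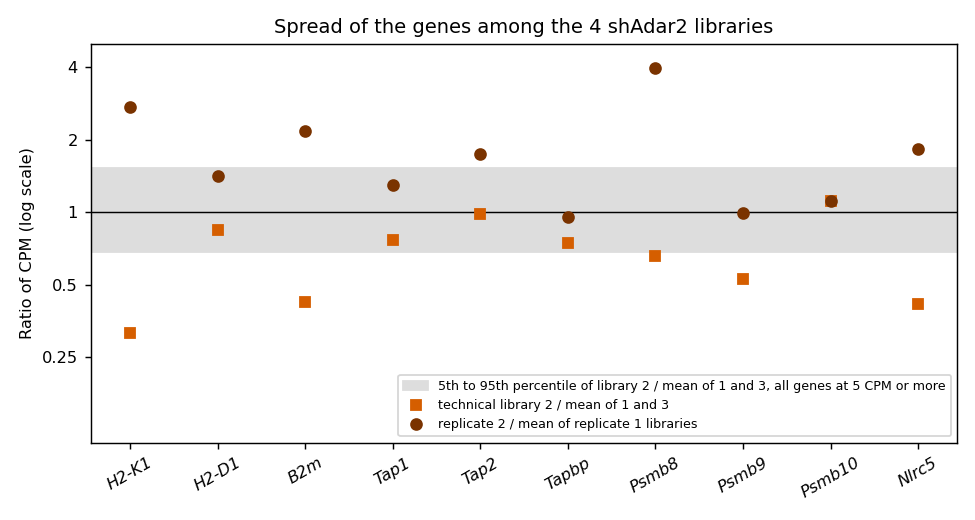
Ratio of CPM (log scale) for each gene between technical library 2 and the mean of libraries 1 and 3 of shAdar2 replicate 1 (squares), and between replicate 2 and the mean of the replicate 1 libraries (circles); the grey band runs from the 5th to the 95th percentile of genes for the first ratio, 0.681 to 1.53. H2-K1, B2m and Nlrc5 lie below the band by squares and above 1 by circles, and Psmb8 is 3.97 times higher in replicate 2.

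No member was called higher in either of the other knockdowns against its own control. In shAdar1 against shControl1 none of the 10 rose and 1 fell, with 9.33% of all genes tested higher and 6.9% lower. DESeq2 also called none higher, and 2 of the 10 had an unadjusted p under 0.05. The gene that fell was Tap1, by 1.06 ± 0.22 (adjusted p = 0.0138, edgeR); the other with an unadjusted p under 0.05 was Tapbp, at 0.42 ± 0.18. The Tap1 call rested on shControl1: Tap1 differed by 0.02 ± 0.23 between shAdar1 and shControl2, and no gene was called lower without shControl1 replicate 2 or without shAdar1 replicate 1. Against shControl2, a comparison outside the stated design, Tapbp (0.67 ± 0.19, adjusted p = 0.0214) and Psmb10 (1.77 ± 0.25, adjusted p = 0.000897, edgeR) were higher in shAdar1, with 19.3% of all genes higher.

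In shZfr against shControl2 none of the 10 genes passed the threshold in either direction, with 16.7% of all genes higher and 14.1% lower. The median log2 fold change was 0.17, and 2 genes had an unadjusted p under 0.05. These were the heavy chains, H2-K1 at -1.35 ± 0.53 (adjusted p = 0.0812) and H2-D1 at -0.62 ± 0.24 (adjusted p = 0.0789, edgeR), each lower in both shZfr replicates than in both shControl2 replicates. DESeq2 called both lower, with adjusted p = 0.0123 for H2-K1 and 0.0466 for H2-D1, and both also passed in edgeR with only the compared groups in the fit (adjusted p = 0.000814 and 0.00327), so whether they were called depended on the settings. Against shControl1, outside the stated design, 5 genes were lower in shZfr, with 23.4% of all genes lower: H2-K1, H2-D1, Tap1, Psmb10 and Nlrc5. B2m was not among them (-0.67 ± 0.35, adjusted p = 0.143, edgeR).

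The 2 control hairpins themselves differed. All 10 genes had a lower fitted level in shControl2 than in shControl1, and 2 passed the threshold, with 23.2% of all genes lower and 19.9% higher. Tap1 differed by -1.08 ± 0.23 (adjusted p = 0.00412) and Psmb10 by -1.504 ± 0.24 (adjusted p = 0.00112, edgeR), so each of these genes differed between control hairpins by about as much as, or more than, it did in the knockdowns of Adar and Zfr against their own controls. Cell type markers differed between the control hairpins too: 9 of 10 astrocyte markers were higher in shControl2, with a median log2 fold change of 1.41, and 5 of 7 oligodendrocyte lineage markers, with a median of 2.03. Their part in the class I levels was not tested. The rise in shAdar2 was larger when taken against shControl2, where all 10 genes passed and 32.2% of all genes were higher, with a median log2 fold change of 3.37. Psmb9 then passed the threshold (adjusted p = 0.00974, edgeR; 0.0939 without shControl2 replicate 1), but shControl2 held only 0 and 2 of its reads, and 1 Psmb8 read in each replicate, so the size of their difference is poorly determined.

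Direct tests set shAdar2 against the other knockdowns. Against shAdar1, 9 of the 10 genes were higher (17.0% of all genes tested), with a median log2 fold change of 2.84, and Psmb10 did not pass (0.47 ± 0.22, adjusted p = 0.122, edgeR). Psmb9 passed there at an adjusted p of 0.0324 (edgeR) but in only 6 of the 15 alternatives run, with adjusted p up to 0.1999 (without shAdar1 replicate 1). Against shZfr all 10 were higher (31.8% of all genes), with a median of 3.13, from 1.96 ± 0.24 for Psmb10 to 5.20 ± 0.52 for H2-K1, which was 4.30 without shAdar2 replicate 2. Adarb1 itself measured 51.3 CPM in shAdar2 and 48.6 CPM in shZfr (difference 0.08 ± 0.12, adjusted p = 0.564, edgeR). Zfr measured 192 CPM in shAdar2 and 177 CPM in shZfr (difference 0.12 ± 0.11, adjusted p = 0.360, edgeR), so neither target differed detectably between these 2 groups. These comparisons share the shAdar2 samples and are not independent of each other.

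**Figure D4:**
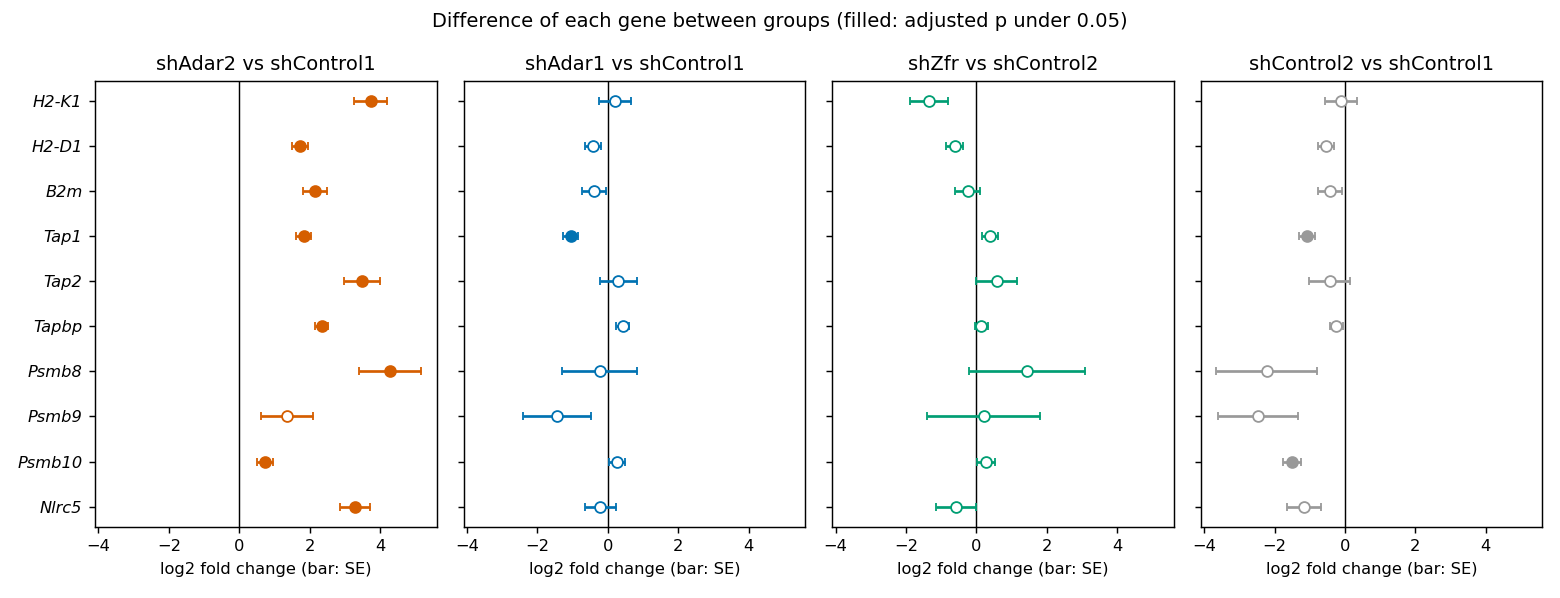
Log2 fold change of each gene (point) with its SE (bar) in the 3 stated comparisons and between the control hairpins; filled points passed an adjusted p of 0.05 in edgeR's test. In shAdar2 9 of 10 points are filled and positive, whereas Tap1 in shAdar1 and Tap1 and Psmb10 between the controls are filled and negative.

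Outside shAdar2 the order of the groups differed from gene to gene. shAdar2 stood first for all 10 genes, but next came shControl1 for H2-D1, B2m, Tap1, Psmb8, Psmb9 and Nlrc5, and shAdar1 for H2-K1, Tap2, Tapbp and Psmb10. shZfr was lowest for H2-K1, H2-D1, B2m and Nlrc5, shControl2 for Tap2, Tapbp, Psmb8, Psmb9 and Psmb10, and shAdar1 for Tap1. For B2m, shControl2 (10.99 ± 0.03 CPM) and its neighbour shAdar1 (10.9 ± 3.08) differed by 0.03 ± 0.35 on the log2 scale (adjusted p = 0.954, edgeR). Replicates of neighbouring groups overlapped for other genes too. H2-K1 was 5.66 and 3.18 CPM in shAdar1 and 3.60 and 4.14 CPM in shControl1 (adjusted p = 0.795, edgeR), and Psmb8 also overlapped between shControl1 and shAdar1. Only some neighbours lay beyond their replicates' spread. Tap1 was lower in shZfr (4.29 ± 0.15 CPM) than in shControl1 (6.94 ± 1.00, adjusted p = 0.0275, edgeR). H2-K1 was 1.42 ± 0.25 CPM in shZfr and 3.62 ± 0.65 in shControl2, where the test did not pass. For Psmb10, shControl2 (1.71 ± 0.29 CPM) and shZfr (2.08 ± 0.23) were both lower than shControl1 (4.80 ± 0.64), with adjusted p of 0.00112 and 0.00283 (edgeR), and shControl2 was also lower than shAdar1 (5.68 ± 0.22).

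Further genes of the class I pathway were taken from lists chosen by function. Over all genes tested, 23.2% rose and 23.2% fell in shAdar2 against shControl1, and 32.2% rose against shControl2. The counts of each list below stand beside these shares. Other class I heavy chains and class I-like molecules were also higher in shAdar2: of 28 listed, 12 could be tested, and 9 rose and none fell against shControl1, with a median log2 fold change of 2.32. H2-Q4 rose by 3.78 ± 0.61 (adjusted p = 0.00101), H2-T23 by 5.92 ± 1.01 (adjusted p = 0.00140) and H2-Q7 by 5.75 ± 1.28 (adjusted p = 0.00544, edgeR). H2-T23, a nonclassical heavy chain that presents signal peptides, measured 1.62, 1.12, 3.26 and 11.8 CPM in the shAdar2 libraries and at most 0.18 CPM elsewhere. The summed level of the list was 32.6, 27.3, 31.0 and 71.8 CPM in shAdar2 and 8.31 to 12.5 CPM in the other libraries, again highest in replicate 2. H2-Q genes are near-identical copies, and how reads were split between them is uncertain. In shAdar1 none of the 12 passed, and in shZfr against shControl2 1 was lower (H2-T9, from few reads) and none higher.

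The general machinery that class I loading borrows was mostly lower or not called against shControl1. Of 8 peptide loading and trimming partners, 4 fell and none rose in shAdar2 against shControl1: Pdia3, the thiol oxidoreductase of the loading complex, by 0.97 ± 0.09 (adjusted p = 6.8e-05), the peptidase Tpp2 by 0.84 ± 0.09 (adjusted p = 0.00013) and the aminopeptidase Lnpep by 0.75 ± 0.09 (adjusted p = 0.00027, edgeR) were the 3 with the lowest p, and Uggt1 was the fourth to fall. Against shControl2 5 of the 8 were lower and 2 higher. Of 11 shared subunits of the 20S proteasome core, 8 fell and none rose, such as Psma6 (-1.08 ± 0.10, adjusted p = 5.3e-05, edgeR). This group also differed between the control hairpins: all 11 were lower in shControl2 than in shControl1, with a median of -1.36, and against shControl2 10 were higher and 1, Psma3, lower in shAdar2, so the direction of the 20S core depended on the control hairpin. The summed 20S core measured 702 to 773 CPM in shAdar2, 1064 and 1067 in shControl1 and 484 and 445 in shControl2. Of 5 proteasome activators and assembly factors, only Psme4 passed, falling by 0.48 ± 0.12 (adjusted p = 0.00815, edgeR).

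Among 18 transcriptional regulators known to act on class I genes, 10 rose and 3 (Creb1, Rfxap and Nfya) fell in shAdar2 against shControl1. Irf1, which binds the IRF motif, measured 1.45 and 2.04 CPM in shControl1 and 8.40, 6.27, 11.4 and 9.39 in shAdar2 (2.37 ± 0.28, adjusted p = 0.00021, edgeR). Rfxank, a subunit of the RFX complex at class I and class II promoters, rose by 1.296 ± 0.19 (adjusted p = 0.00058, edgeR). In the other stated comparisons, 1 rose (Nfyb) and none fell in shAdar1, and 2 rose (Atf1 and Rela) and 2 fell (Irf2 and Nfya) in shZfr.

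Interferon RNA itself was near the limit of detection. Of 22 listed ligands and receptors 19 were found, 6 had no count in any library and 8 could be tested. Ifnb1, the gene of interferon beta, had counts only in technical library 1 of shAdar2 (0.18 CPM), and Ifng, the gene of interferon gamma, only in shControl2 replicate 2 (0.05 CPM) and shAdar2 replicate 2 (0.17 CPM), with at most 6 expected counts a library. Among the receptors tested, 2 rose and 2 fell in shAdar2 against shControl1: Ifngr2 fell by 0.65 ± 0.10 (adjusted p = 0.000792), Ifnar1 fell by 0.43 ± 0.08 (adjusted p = 0.00260), Ifnlr1 rose by 3.26 ± 0.88 (adjusted p = 0.0135, edgeR) to between 0.28 and 1.03 CPM, and Ifnar2 was the other that rose. Against shControl2 1 of the 8 was higher and none lower. The falls of Ifngr2 and Ifnar1, and at least 1 of the 2 rises, therefore depended on the control hairpin.

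Class II genes and immune receptors were scarce. Of 11 class II genes 3 could be tested, and Cd74, the invariant chain, rose by 3.38 ± 1.01 (adjusted p = 0.0218, edgeR) to 0.73, 0.25, 0.80 and 0.61 CPM in the shAdar2 libraries. H2-Ab1 (1.74 ± 0.73, adjusted p = 0.0744) and H2-DMa (0.32 ± 0.24) did not pass. Of the genes listed for receptors of class I molecules and related receptors, 1 could be tested, Lilrb4, and it did not pass (0.03 ± 1.04). Pirb, of the same list, had at most 6 expected counts a library (in shAdar2 replicate 2) and could not be tested. The 2 lymphocyte and dendritic cell markers tested included Cd4, which rose (3.19 ± 0.83, adjusted p = 0.0133, edgeR), and Flt3, which did not pass, and the summed list stayed between 1.27 and 2.49 CPM in shAdar2 against 0.77 to 2.21 CPM elsewhere.

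Other genes of the MHC region, outside the lists above, were set beside the members, since most of the 10 lie in that region. Whether any of them acts on class I genes was not tested. Of 18 tested, 12 rose and none fell in shAdar2 against shControl1, with a median log2 fold change of 0.62, smaller than the 2.25 of the members. The lysosomal sialidase Neu1 rose by 1.18 ± 0.15 (adjusted p = 0.00033), the nuclear receptor Rxrb by 0.76 ± 0.12 (adjusted p = 0.00084) and Rgl2 by 0.87 ± 0.14 (adjusted p = 0.00114, edgeR). B2m, Psmb10 and Nlrc5 lie outside the MHC region, and all 3 rose.

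Markers of other cell types were less uniform. With 23.2% of all genes tested higher and 23.2% lower against shControl1, several of these counts lay near the share over all genes. Of 10 astrocyte markers 1 rose (Gfap, 1.47 ± 0.38, adjusted p = 0.0105, edgeR) and none fell against shControl1, whereas against shControl2 1 rose and 7 fell, with a median log2 fold change of -1.75. Of 9 mural and fibroblast markers 3 rose, Col1a1, Acta2 and Dcn. The astrocyte list and this one had summed levels in shAdar2 within or below the range of the other libraries. Of 12 neuron markers 4 rose and 4 fell against shControl1: Stmn2 (-1.57 ± 0.12) and Map2 (-1.29 ± 0.16) were among those that fell and Slc17a7 (2.14 ± 0.17) among those that rose. Of 7 oligodendrocyte lineage markers Mbp rose against shControl1 (0.96 ± 0.18), and of 4 endothelial markers Esam rose (1.79 ± 0.65). Against shControl2 none of the 7 was higher and 2 were lower, and none of the 4 endothelial markers passed. The part of these cell types in the class I levels was not tested.

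**Figure D5:**
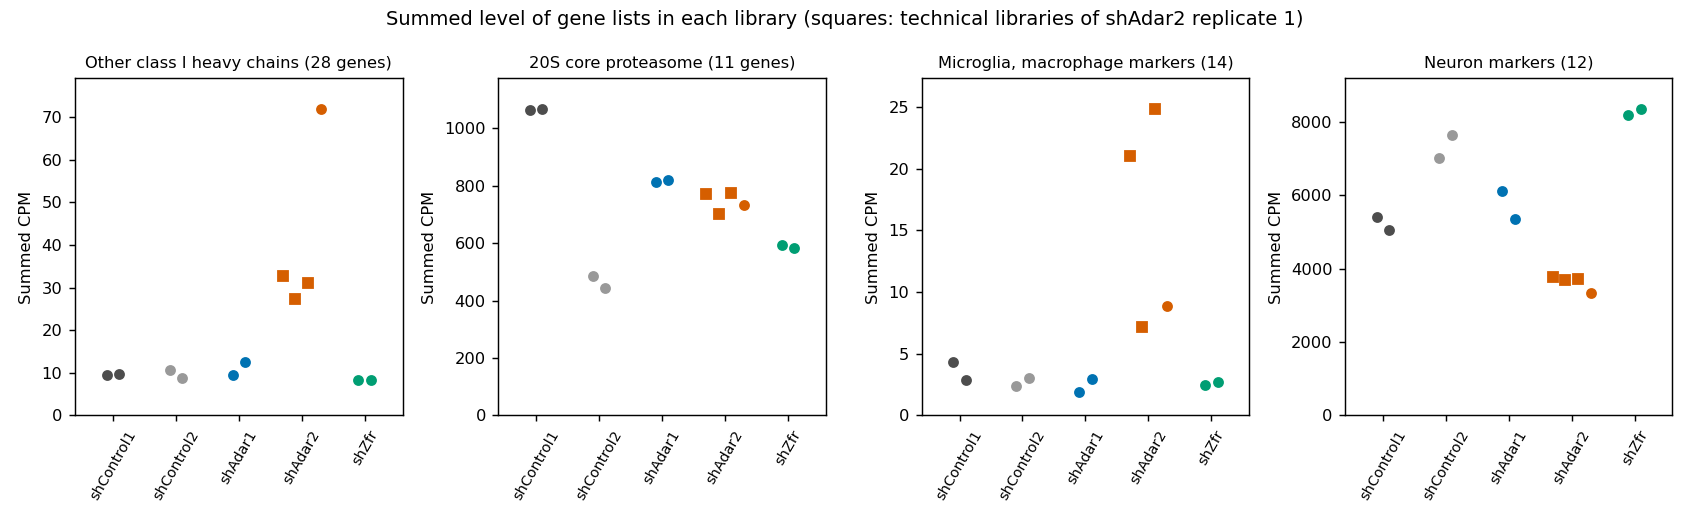
Summed CPM (linear axes from 0) of 4 gene lists in each library by group; squares are the technical libraries of shAdar2 replicate 1. Other class I heavy chains reach 71.8 CPM in shAdar2 replicate 2, the microglia list 24.8 CPM in technical library 3, the 20S core differs between the control hairpins, and the neuron list is lowest in shAdar2.

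Among 11111 genes with a mean of at least 5 CPM, the pattern over the 10 samples most like the average of the members was that of Lrp10 (Pearson r = 0.98), followed by Evc2, Aldh2, Rnh1, Ccnd3 and Tnip1 (each r = 0.98 after rounding). Likeness was measured on log2 CPM against the mean standardised level of the 10 genes. The samples share libraries and depth across genes, and all 6 genes were highest in shAdar2. Lrp10 averaged 70.2 CPM in shAdar2 and 27.0 to 32.1 CPM in the other groups, and Tnip1 averaged 22.02 CPM in shAdar2 and 6.57 to 10.0 CPM elsewhere. Lrp10 was 1.13 ± 0.10 and Tnip1 1.12 ± 0.15 higher than in shControl1 on the log2 scale, smaller values than those of the members other than Psmb10.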

How the data were processed

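RNA-seq libraries (12, from 10 samples in 5 groups) were made from 250 ng of RNA depleted of ribosomal RNA with antisense oligonucleotides and RNase H, per the labels' protocols. The authors deposited a gene table per library with raw expected counts from RSEM, which estimate the reads of each gene, TPM (scaled by transcript length and to a library total) and, per the file headers, a posterior SD of the count, used here as a score of read placement. The submitters' processing notes name RSEM 1.2.30, STAR 2.5.4b, DESeq2 1.20.0, Trim Galore 0.4.5, SAMtools 1.4 and the mm9 build without giving their roles. Editing tables were not used here.

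Counts of the 3 technical libraries of shAdar2 replicate 1 were summed, and expected counts were rounded. Genes were filtered with filterByExpr (14785 of 23955 tested, all 10 members among them), scaled by TMM factors and compared by the quasi-likelihood F test of edgeR (4.0.16, under R 4.3.3), all 10 samples in 1 fit, with Benjamini-Hochberg adjustment over all genes tested and a threshold of 0.05. The SE of a log2 fold change is its size divided by the root of F. The fit was tested on simulated data. Ratios between genes use TPM within a library. The 2 shZfr libraries differed least of all biological pairs (median absolute log2 difference 0.0565 against 0.131 to 0.308). They differed by more than sampling noise, but so did the technical libraries, so this cannot show that they were separate cultures. They were counted as 2 samples, as their labels number them. The technical libraries of shAdar2 replicate 1 differed from each other by 0.161 to 0.238. That was more than the replicates of shControl1 (0.154), shControl2 (0.131) or shAdar1 (0.146) did, although these libraries were summed as 1 sample.

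The members, lists and tests were chosen with earlier results of these data known. All members are named, up to 3 genes per list with the lowest p in shAdar2 against shControl1, genes at 0, and the 6 genes most like the members in pattern. The result of 1 gene that this rule took is not reported here. Tmem119, Cd68, Cx3cr1, Itgam, P2ry12, Ptprc, Aif1, Csf1r, Pirb, Uggt1, H2-T9, Psma3 against shControl2, Ifnar2 and the regulators Creb1, Rfxap, Nfya, Nfyb, Atf1, Rela and Irf2 are named outside that rule, after their values were seen. Alternatives were DESeq2 1.42.0, RLE factors, no filter, a replicate block, only the compared groups, each replicate left out, single technical libraries, the shZfr libraries summed, Rn45s left out, the other control and both controls pooled. The genome build of the promoter windows differs from that of the counts, so windows are matched by gene symbol only.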

Additional observations from a re-analysis of the deposited data

How the results depend on the processing

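The counts of members called in shAdar2 stayed within 1.5 times their main value under each alternative tried, and in all comparisons together 214 counts did so and 12 moved. Members lower in shZfr than in shControl2 numbered 0 in the main analysis, 2 with DESeq2 and with only the compared groups in the fit, 1 without a filter, 1 with technical library 3 alone or libraries 1 and 3 as shAdar2 replicate 1, and 5 with the other control hairpin. Members lower in shAdar1 than in shControl1 numbered 1, and 0 with the other control or both controls pooled, and between 0 and 1 when a replicate was left out; members higher there numbered 2 with the other control. Members lower in shControl2 than in shControl1 numbered 2, and 4 with only these groups in the fit. The cause was not tested.

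Replicate numbers recur in each group. Differences between replicates 1 and 2 correlated from -0.218 to 0.419 over the 10 pairs of groups, with mixed signs and the highest value between shAdar1 and shAdar2. The main fit paired no samples, and whether samples of the same number shared a culture or batch was not tested. With a replicate block, 9 members were higher in shAdar2 than in shControl1, as without it, and 3 rather than 2 were lower in shControl2 than in shControl1.

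For shAdar1 against shControl1, log2 fold changes that crossed 0 when a replicate was left out ranged over -0.28 to 0.57 for H2-K1, -0.47 to 0.97 for Tap2, -2.26 to 1.01 for Psmb8, -0.71 to 0.11 for Nlrc5. With the other control hairpin, shAdar1 reversed for H2-D1 (0.13), B2m (0.033), Tap1 (0.024), Psmb8 (1.99), Psmb9 (1.05), Nlrc5 (0.94). With both controls pooled, shAdar1 reversed for Psmb8 (0.40), Nlrc5 (0.23). For shZfr against shControl2, log2 fold changes that crossed 0 when a replicate was left out ranged over -0.066 to 0.30 for Tapbp, -3.67 to 3.86 for Psmb9, -1.05 to 0.087 for Nlrc5. With the other control hairpin, shZfr reversed for Tap1 (-0.70), Tapbp (-0.12), Psmb8 (-0.78), Psmb9 (-2.27), Psmb10 (-1.22). With both controls pooled, shZfr reversed for Tap1 (-0.27), Psmb8 (-0.14), Psmb9 (-1.57), Psmb10 (-0.66). For shControl2 against shControl1, log2 fold changes that crossed 0 when a replicate was left out ranged over -0.29 to 0.075 for H2-K1, -0.93 to 0.23 for Tap2. Of these, Tap1 and Psmb10 in shZfr with the other control hairpin passed the threshold.

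Of single-gene values, 1056 kept direction and side of the threshold, 21 lost a call, 17 gained one and 30 reversed, with no reversal in a comparison with shAdar2. Low counts limit Psmb8 and Psmb9, whose controls held at most 10 reads a library; the values given above for both genes against shControl2, with 0 to 2 reads a library, depend on the prior count and are no measure of size.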
